A study of Mus musculus with 9 samples.

Results

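The replacement and variant histone genes, which are transcribed outside S phase as well as within it, were followed in T15 cells, a mouse cell line from a Smarcb1-negative peripheral T-cell lymphoma (PTCL) model in which a conditional Smarcb1 allele was lost. They were chosen by name as the listed replication-independent variants: H1f0, H1fx, H2afj, H2afx, H2afy, H2afy2, H2afz, H2afv, H3f3a and H3f3b, 10 of 35288 listed gene identifiers. Of these, 9 passed the low-count filter along with 13697 genes in all, and H2afy2 did not. RNA-seq covered 9 libraries in 3 groups of 3, all derived from this Smarcb1-negative line. T15 control cells were one group. A second group received SAHA (vorinostat, a histone deacetylase inhibitor) at 1 µM, given 2 times in 72 h. At this concentration the paper reports strong apoptosis of the line, with the great majority of cells dead. Whether the SAHA values come from dying or surviving cells was not tested. In the remaining group, Smarcb1-RE, a Smarcb1 cDNA in the lentiviral doxycycline-inducible vector pInducer20 was introduced, cells were selected with G418, and Smarcb1 was induced with 0.5 µg/µl doxycycline for 72 h. The descriptions give both a vehicle and an empty-vector control and also call the control cells untreated. Transduction, G418, doxycycline and Smarcb1 itself therefore cannot be told apart in the Smarcb1-RE comparison. If the controls carried the empty vector, the SAHA comparison would also differ by transduction, G418 and any doxycycline. Several stable lines were established, and which of them the Smarcb1-RE libraries come from is not stated.

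Most histone genes sit in clusters, are expressed in S phase, and end their mRNAs in a stem-loop bound by Slbp instead of a poly(A) tail. Replacement variants generally have polyadenylated mRNAs and supply chromatin throughout the cell cycle, and H2afx is known to make both a stem-loop and a polyadenylated form. H3.3, encoded by both H3f3a and H3f3b, is placed in active genes by the HIRA complex and in heterochromatin by DAXX with ATRX. H2A.Z, encoded by H2afz and H2afv, is exchanged into nucleosomes at promoters by the SRCAP and TIP60-p400 complexes and removed with the help of ANP32E. H2A.X (H2afx) is phosphorylated around DNA breaks. MacroH2A (H2afy, H2afy2) carries a large macrodomain and is known from the inactive X chromosome and silenced genes. H1.0 (H1f0) is a linker histone known to accumulate in cells that have left the cycle, and H1.X (H1fx) is a divergent linker histone.

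Counts per library totalled 20900477 to 24941494. The targeted gene went with the labels: Smarcb1 had 2, 5 and 8 counts in control, 7, 13 and 3 with SAHA, and 151, 147 and 142 with Smarcb1-RE, a log2 fold change of 4.89 ± 0.36 (SE) against control. Control replicate 1 stood apart: its counts differed from those of the other controls by a chi-square of 13.4 and 15 per gene, against 2.08 to 4.69 within the other pairs of replicates. Of 8 T-cell markers, Cd3d, Cd3e, Cd3g, Lck and Trac were abundant, and the list summed to 1684 to 1763 CPM (counts scaled to library size by TMM factors) in every group, but Cd2, Cd5 and Thy1 had no more than 6 counts in any library. The steady sum hides opposite moves. With SAHA, Cd3g was called higher (log2 0.40) and Cd3d and Trac lower. With Smarcb1-RE, Lck was called higher (log2 0.69) and Cd3e, Cd3g and Trac lower. Summed B-cell markers rose from 0.936 to 1.14 CPM in control to 7.25 to 7.97 CPM in Smarcb1-RE libraries, through Pax5 and Ms4a1. Of 6 myeloid markers only Cd68 was tested; it rose with SAHA, from a mean of 1.69 to 6.75 CPM, and the list summed to 2.03 to 2.55 CPM in control, 5.76 to 7.41 with SAHA and 1.85 to 1.92 with Smarcb1-RE. The 6 stromal markers summed to 155 to 161, 113 to 128 and 195 to 199 CPM in these groups. Most of this was Pecam1 and Pdgfra, the latter rising from a mean of 7.57 to 67.1 CPM with Smarcb1-RE; Col1a1 was called higher in both treatments at means of 0.0846, 0.899 and 0.477 CPM, and Cdh5 had at most 1 count. Whether these have a part in the histone values was not tested.

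The promoters of both H2A.Z genes and both linker histone genes are shown because the members of each pair moved in opposite directions. Sequences are RefSeq promoter windows of assembly GRCm38.p6, covering 250 bases before the annotated start, 5′ to 3′ on the gene's strand, with bases inside GENCODE exons left out. Capitals mark a match, on either strand, to CCAAT (the box bound by NF-Y), TATAAA (the TATA box), GGGCGG (the GC box), AAACACA (the box known from linker histone genes), TGACGTCA (the cAMP response element) or CACGTG (an E-box). The H2afz window lies at chr3:137864237-137864486 (plus strand), the H2afv window at chr11:6444444-6444693 (minus), the H1f0 window at chr15:79027962-79028211 (plus, ending 238 bases before the GENCODE start), and the H1fx stretch at chr6:87981638-87981732 (minus, 95 bases).
H2afz: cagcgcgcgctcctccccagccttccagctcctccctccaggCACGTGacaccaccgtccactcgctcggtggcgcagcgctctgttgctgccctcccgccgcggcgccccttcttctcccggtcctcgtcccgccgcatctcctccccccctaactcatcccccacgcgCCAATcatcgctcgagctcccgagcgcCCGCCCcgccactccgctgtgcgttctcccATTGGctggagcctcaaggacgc
H2afv: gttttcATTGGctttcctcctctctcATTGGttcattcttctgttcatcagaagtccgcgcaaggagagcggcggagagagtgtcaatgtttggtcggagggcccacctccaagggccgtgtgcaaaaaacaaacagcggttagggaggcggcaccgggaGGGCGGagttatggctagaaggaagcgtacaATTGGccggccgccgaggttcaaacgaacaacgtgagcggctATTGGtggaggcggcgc
H1f0: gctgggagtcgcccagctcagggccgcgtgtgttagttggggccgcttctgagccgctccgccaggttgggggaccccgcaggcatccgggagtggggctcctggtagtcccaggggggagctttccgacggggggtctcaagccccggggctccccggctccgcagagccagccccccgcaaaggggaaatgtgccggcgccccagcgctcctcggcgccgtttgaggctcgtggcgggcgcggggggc
H1fx: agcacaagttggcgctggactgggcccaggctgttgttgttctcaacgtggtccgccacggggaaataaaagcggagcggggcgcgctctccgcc

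The H2afz window held 2 CCAAT, 1 GGGCGG and 1 CACGTG match, and the H2afv window held 4 CCAAT and 1 GGGCGG. None of these motifs was found in the H1f0 window, but the bases between its end and the GENCODE start of H1f0 were not searched. The whole H1fx window of 250 bases held 1 GGGCGG match, in the exonic part not shown, and the stretch shown held none. Among 32851 mouse promoter windows of the same 250 bases, 33.8% held CCAAT, 32.7% GGGCGG, 12.4% TATAAA, 6.25% AAACACA, 6.02% CACGTG and 1.55% TGACGTCA. The 4 windows were GC-rich, at 71.2% for H2afz, 57.2% for H2afv, 74.4% for H1f0 and 75.2% for the whole H1fx window, against a median of 52.4%. RefSeq windows were matched for 9 of the 10 genes.

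The 9 expressed genes spanned a wide range of abundance. Scaled to exon length (TMM-normalised CPM per kb), control cells held 348 ± 35.6 (SD, n = 3) for H2afz, 149 ± 7.48 for H3f3b and 77.9 ± 3.1 for H3f3a, followed by 50.3 ± 2.19 for H2afx. H2afv at 29.6 ± 3.37, H2afy at 27.2 ± 1.17 and H2afj at 25.3 ± 3.33 CPM per kb could not be ordered, because their ranges over libraries overlapped. H1f0 came next at 19.5 ± 0.44 CPM per kb, and H1fx was the lowest of those detected at 1.94 ± 0.136. H2afy ranked next after H3f3a when scaled to its longest coding transcript, since its 8 annotated transcripts have a long combined exon length. H2afz, H3f3b and H3f3a were, in this order, the most abundant in all 3 groups, whereas H1f0 passed H2afj in Smarcb1-RE cells and there overlapped in range with H2afv.

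Together the members gave 1727 ± 118 CPM in control, 1733 ± 3.36 in SAHA and 1401 ± 8.79 CPM in Smarcb1-RE cells (SD, n = 3). The 70 listed cluster histone genes gave 281 ± 35.7, 199 ± 13.4 and 242 ± 5.93 CPM, of which 80.5% lay in Hist1h2ao, Hist1h2aj and Hist1h2ap. How the RNA was selected is not given in the sources used here, and cluster histone mRNAs, which lack a poly(A) tail, are lost in poly(A) selection.

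With SAHA, 5 of the 9 tested members were higher and 4 lower than in control at an adjusted p under 0.05, against 32.6% higher and 34.3% lower among all genes tested. The median log2 fold change was 0.19 for the members and 0.0027 for all genes. With Smarcb1-RE, 2 were higher and 5 lower than in control, against a background of 39.2% and 38.6%, with a median of -0.21 for the members and 0.01 for all genes. Scaled to library totals alone, which moves the all-gene median to 0.17, the Smarcb1-RE split was 4 higher and 4 lower. The all-gene shares of calls under that scaling are not given here, and the 39.2% and 38.6% do not stand for them. In the direct comparison of Smarcb1-RE with SAHA, 2 were higher and 5 lower, against 37.7% and 36.8%, with a median of -0.34 for the members and 0.02 for all genes. All p-values named adjusted are from edgeR's quasi-likelihood test with Benjamini-Hochberg adjustment over all genes tested. Both treatments are set against the same 3 control libraries. With library totals the direct differences of H2afz, H3f3a and H3f3b shrank to -0.21, -0.18 and -0.32 and still passed.

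**Figure D1:**
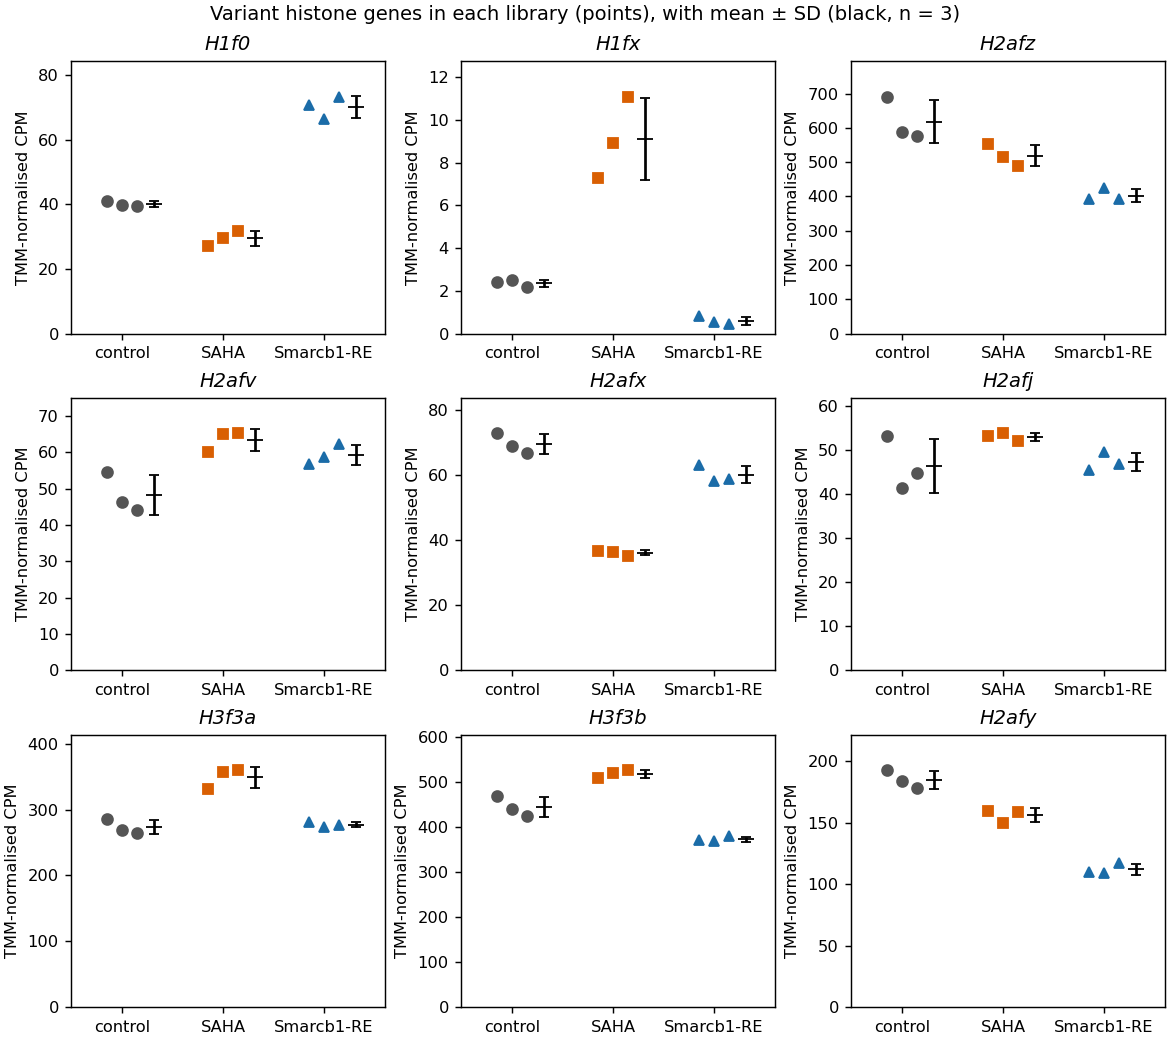
TMM-normalised CPM (vertical axes, each starting at 0) of the 9 detected variant histone genes in the 3 control, 3 SAHA and 3 Smarcb1-RE libraries; points are libraries, and the black mark is the mean ± SD. H1f0 and H1fx are displaced in opposite directions in both treatments, and H2afx is lowest with SAHA.

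H1fx showed the largest difference of any member in each comparison, and H1f0, the other linker histone gene, moved in the opposite direction each time. H1f0 (ENSMUSG00000096210; chr15:79028450-79030504, GRCm38, plus strand, a single exon) stood at 41.1, 39.8 and 39.4 CPM in control, 27.2, 29.5 and 31.7 with SAHA, and 70.7, 66.4 and 73.3 with Smarcb1-RE. The 3 groups did not overlap, with SAHA lowest and Smarcb1-RE highest. H1f0 fell by 0.44 ± 0.06 on the log2 scale with SAHA (SE; adjusted p = 3.06e-05) and rose by 0.81 ± 0.06 with Smarcb1-RE (adjusted p = 3.73e-08). The direct comparison gave a log2 fold change of 1.25 (adjusted p = 1.06e-09).

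H1fx (ENSMUSG00000044927; chr6:87980421-87981637, minus strand, a single exon) was low throughout and moved the other way. It had 57, 59 and 53 counts in control (2.42, 2.49 and 2.18 CPM), 168, 202 and 258 with SAHA (7.28, 8.93 and 11.1 CPM), and 19, 12 and 10 with Smarcb1-RE (0.811, 0.531 and 0.431 CPM). The groups were again separate, with every SAHA library above and every Smarcb1-RE library below the controls. H1fx was 3.84-fold higher with SAHA (log2 1.94 ± 0.19 SE, adjusted p = 1.5e-06), and its log2 fold change was -1.99 ± 0.26 with Smarcb1-RE (adjusted p = 1.24e-05) and -3.93 ± 0.23 between the treatments (adjusted p = 7.91e-09). Antisense genes annotated across H1f0 and H1fx are not listed, and the strand setting of the counting is not given, so reads from either strand cannot be told apart for these genes.

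Of the length-scaled counts of the H1f0 and H1fx pair, H1f0 held 90.4 to 91.5% in control, 62.8 to 68.8% with SAHA and 98.1 to 99% with Smarcb1-RE. Their coding sequences were 49.4% identical in bases, the lowest of the 5 pairs compared. The replication-coupled linker histone genes Hist1h1a to Hist1h1e were present only at a summed 4.44 to 5.06 CPM in control, 7.62 to 8.27 with SAHA and 11.4 to 13.8 with Smarcb1-RE. Of these 5, 3 rose with SAHA and all 5 with Smarcb1-RE, against 32.6% and 39.2% of all genes tested, and none fell. The largest difference was in Hist1h1a, at a log2 fold change of 2.39 with SAHA (adjusted p = 0.00251) and 2.38 with Smarcb1-RE (adjusted p = 0.002), resting on at most 6 counts in any control library.

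**Figure D2:**
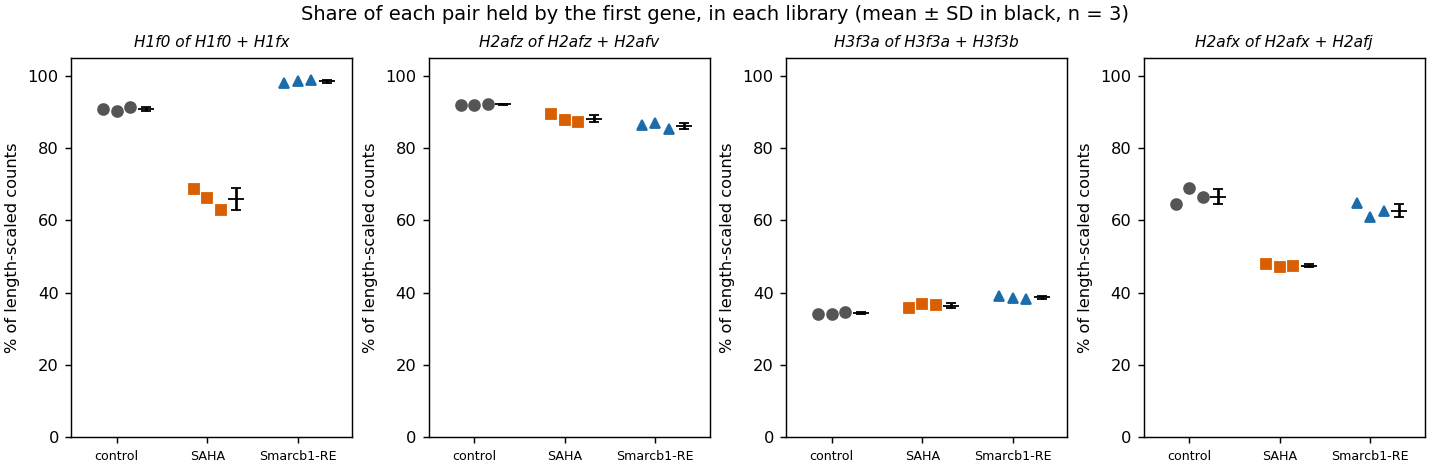
Percentage of the length-scaled counts of each gene pair held by the first gene (vertical axis, from 0) in each control, SAHA and Smarcb1-RE library; the black mark is the mean ± SD. The H1f0 share falls to 62.8 to 68.8% with SAHA and rises to 98.1 to 99% with Smarcb1-RE, the H2afx share falls to 47.2 to 47.9% with SAHA, and the shares of H2afz and H3f3a move less.

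The H2A.Z genes diverged from each other in both treatments. H2afz (ENSMUSG00000037894; chr3:137864487-137866922, plus strand, 5 exons), the main H2A.Z gene here, stood at 691, 588 and 576 CPM in control, 553, 514 and 490 with SAHA, and 392, 423 and 392 with Smarcb1-RE. The groups did not overlap, and Smarcb1-RE was the lowest. H2afz fell by 0.25 ± 0.07 on the log2 scale with SAHA (adjusted p = 0.0056) and by 0.62 ± 0.07 with Smarcb1-RE (adjusted p = 2.97e-06). The SAHA difference was -0.17 without control replicate 1, and the Smarcb1-RE difference was -0.46 with library totals. Both still passed. H2afz was lower in Smarcb1-RE than in SAHA cells by a log2 fold change of -0.37 (adjusted p = 0.000337).

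H2afv (ENSMUSG00000041126; chr11:6427229-6444443, minus strand, 5 exons), which encodes the second H2A.Z protein, stood at 54.5, 46.4 and 44 CPM in control, 60, 65 and 65.2 with SAHA, and 56.7, 58.6 and 62.3 with Smarcb1-RE. Both treatments lay above control, and their own ranges overlapped. H2afv rose by 0.39 ± 0.07 on the log2 scale with SAHA (adjusted p = 0.000348) and by 0.29 ± 0.07 with Smarcb1-RE (adjusted p = 0.0024; 0.45 with library totals), with no call between the treatments (-0.10 ± 0.07, adjusted p = 0.22).

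The H2afz share of the pair was 92.1 to 92.3% in control, 87.4 to 89.4% with SAHA and 85.3 to 86.9% with Smarcb1-RE. The log2 ratio of H2afz to H2afv was lower than in control by a difference of -0.65 with SAHA and -0.91 with Smarcb1-RE. Each 2-sided exact permutation test of 3 against 3 libraries gave p = 0.1, the smallest it can give, and 0.109 adjusted over the 12 ratio tests made.

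Reads of H2afz are shared with other loci. Of the 50-base stretches in its longest coding transcript, 69.6% also occur in other annotated genes, mainly Tmcc1 (620 of 1020) and the processed pseudogene Gm8203 (338), against 0 for H2afv. Gm8203 was listed at 365, 353 and 354 CPM in control, 292, 279 and 290 with SAHA, and 204, 203 and 201 with Smarcb1-RE, so how the estimated counts split reads between the gene and its copy is uncertain. Summed with its 4 listed processed pseudogenes, H2afz gave 976 ± 69.7 CPM in control, 806 ± 34.1 with SAHA and 605 ± 18.5 with Smarcb1-RE (SD, n = 3), log2 fold changes of -0.28 (adjusted p = 0.000531) and -0.69 (adjusted p = 9.48e-08). The pseudogenes held 36.7%, 35.7% and 33.6% of these sums.

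**Figure D3:**
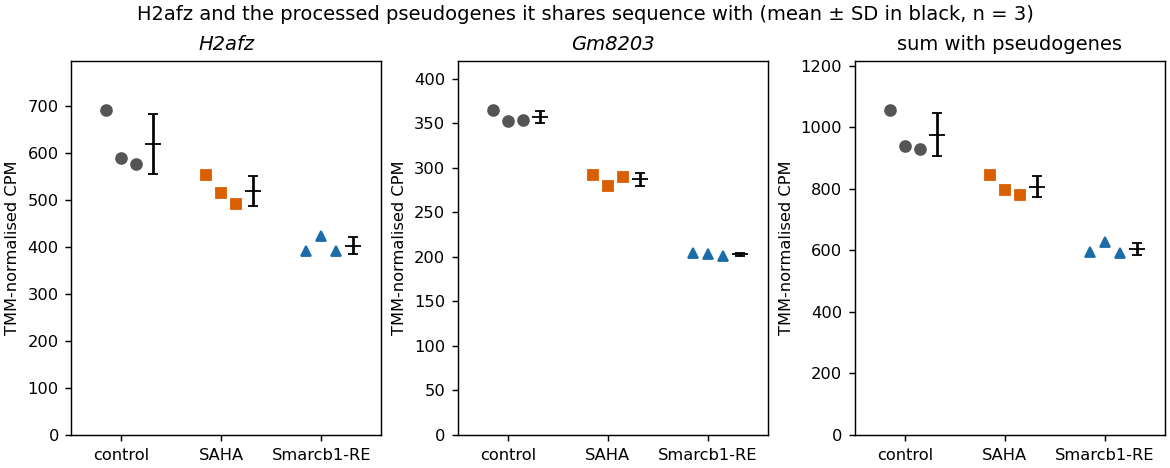
TMM-normalised CPM (vertical axes, from 0) of H2afz, of its processed pseudogene Gm8203 and of the sum of H2afz with its 4 listed processed pseudogenes, in each of the 9 libraries; the black mark is the mean ± SD. In all 3 panels the libraries order as control, SAHA, Smarcb1-RE without overlap.

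Genes that place or remove H2A.Z were mostly lower with SAHA: 14 of 15 in the list of SRCAP, TIP60-p400 and eviction genes fell, none rose, and the median log2 fold change was -0.55. With Smarcb1-RE, 9 fell and 2 rose, with a median of -0.30. For all genes tested, 34.3% fell and 32.6% rose with SAHA, and 38.6% fell and 39.2% rose with Smarcb1-RE. Srcap, the ATPase of its complex, fell by 0.55 ± 0.12 with SAHA (adjusted p = 0.0014) and stood at 0.08 ± 0.12 with Smarcb1-RE (adjusted p = 0.552). Anp32e, the H2A.Z removal chaperone, went from 262 ± 8.83 CPM in control to 242 ± 1.04 with SAHA (log2 -0.12, adjusted p = 0.0134) and 151 ± 0.511 with Smarcb1-RE (log2 -0.80, adjusted p = 8.95e-10). The largest called differences were in Epc1, a TIP60 complex subunit, with SAHA (log2 -1.14, adjusted p = 3.08e-08) and in Ruvbl1, an AAA+ ATPase shared by these complexes, with Smarcb1-RE (log2 -1.43, adjusted p = 4.11e-11).

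H2afx (ENSMUSG00000049932; chr9:44334694-44336077, plus strand, a single exon) was the member most reduced by SAHA. It stood at 72.9, 68.9 and 66.9 CPM in control, 36.8, 36.3 and 35.3 with SAHA, and 63.1, 58.3 and 59 with Smarcb1-RE. The SAHA libraries lay far below the other 6, and the Smarcb1-RE libraries just below the controls. Its stem-loop and polyadenylated forms were not separated. H2afx was at 0.519 of the control level with SAHA (log2 -0.94 ± 0.05 SE, adjusted p = 8.86e-09) and fell by 0.21 ± 0.05 with Smarcb1-RE (adjusted p = 0.00123). The latter call was lost with library totals in place of TMM (log2 -0.05, adjusted p = 0.302). Between treatments the log2 fold change was 0.73 (adjusted p = 2.9e-08).

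Kinases and readers that act on H2A.X were lower with SAHA where they were called. Of 8 genes, 5 fell and none rose with SAHA, 3 fell and 4 rose with Smarcb1-RE, and 7 were higher in Smarcb1-RE than in SAHA cells. The all-gene shares were 34.3% lower and 32.6% higher with SAHA, and 38.6% lower and 39.2% higher with Smarcb1-RE. In the direct comparison, 37.7% of all genes were higher. The list median was -0.20 with SAHA and 0.17 with Smarcb1-RE. Rnf8, a ubiquitin ligase recruited to phosphorylated H2A.X, had the largest called difference with SAHA (log2 -1.13, adjusted p = 3.24e-06), and Prkdc, the catalytic subunit of DNA-dependent protein kinase, with Smarcb1-RE (log2 0.87, adjusted p = 5.7e-07).

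H2afj (ENSMUSG00000060032; chr6:136808244-136810074, plus strand), an H2A variant known from senescent and luminal epithelial cells, varied little. It stood at 53.1, 41.2 and 44.7 CPM in control, 53.1, 53.7 and 52 with SAHA, and 45.5, 49.4 and 46.7 with Smarcb1-RE. Control replicate 1 was as high as the SAHA libraries, so control overlapped both treatments, while the Smarcb1-RE libraries lay just below the SAHA libraries. The SAHA difference of 0.19 ± 0.07 on the log2 scale passed the test (adjusted p = 0.0377) but not in 6 of the 9 fits that left out 1 library, and was 0.30 without control replicate 1. The Smarcb1-RE difference of 0.03 ± 0.08 did not pass (adjusted p = 0.755), but it did without control replicate 1 (0.13, adjusted p = 0.0287) and with library totals (0.19, adjusted p = 0.0352). Between the treatments the difference was -0.17 ± 0.08 (adjusted p = 0.0627), which passed without any 1 of the control libraries (adjusted p = 0.00301 to 0.0486) and was -0.01 with library totals (adjusted p = 0.938). H2afj and H2afx coding sequences were 89.5% identical, and 7.18% and 9.66% of their 50-base stretches occur in any other annotated gene. For each the largest overlap, 92 stretches, was with a microRNA gene annotated over it on the opposite strand. H2afx shared up to 82 with single cluster H2A genes such as Hist1h2ao, which had a higher mean count than H2afx in every group. How the estimated counts split reads between H2afx and these cluster genes is uncertain, and the cluster genes were not summed in.

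H2afx held 64.5 to 68.9% of the length-scaled counts of H2afx and H2afj in control, 47.2 to 47.9% with SAHA and 60.9 to 64.7% with Smarcb1-RE. The log2 ratio differed from control by -1.14 with SAHA (exact permutation p = 0.1, the smallest possible) and by -0.24 with Smarcb1-RE (exact permutation p = 0.2). Only the SAHA libraries lay clear of the control range.

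Both H3.3 genes rose with SAHA and parted with Smarcb1-RE. H3f3a (ENSMUSG00000060743; chr1:180800832-180813943, minus strand) stood at 285, 269 and 265 CPM in control, 331, 357 and 360 with SAHA, and 281, 273 and 277 with Smarcb1-RE. Only the SAHA libraries stood outside the control range. H3f3a rose by 0.35 ± 0.04 on the log2 scale with SAHA (adjusted p = 1.41e-05) and differed by 0.02 ± 0.04 with Smarcb1-RE (adjusted p = 0.699), a difference that passed with library totals (log2 0.18, adjusted p = 0.0018).

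H3f3b (ENSMUSG00000016559; chr11:116021912-116027962, minus strand) was the more abundant of the pair. It stood at 468, 440 and 424 CPM in control, 508, 520 and 526 with SAHA, and 370, 368 and 379 with Smarcb1-RE. The groups were separate, with SAHA above control and Smarcb1-RE below. H3f3b rose by 0.22 ± 0.04 with SAHA (adjusted p = 0.000474) and fell by 0.25 ± 0.04 with Smarcb1-RE (adjusted p = 0.000113), or by 0.10 with library totals (adjusted p = 0.0389), and the direct comparison gave -0.48 (adjusted p = 3.92e-07).

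H3f3a and H3f3b encode the same protein from coding sequences that were 76.9% identical. H3f3a held 34.1 to 34.7% of their length-scaled counts in control, 35.6 to 36.8% with SAHA and 38.3 to 39.2% with Smarcb1-RE. The log2 ratio differed from control by 0.13 and 0.27 (exact permutation p = 0.1 for each, the smallest 3 against 3 libraries allow). H3f3a shares 30.3% of its 50-base stretches with other genes, 38 of them listed processed pseudogenes that held 7.9 to 9.01% of the summed CPM. With those added, its log2 fold changes were 0.36 with SAHA and 0.04 with Smarcb1-RE. The largest overlap, 595 of the 845 shared stretches, was with Gm17275, a long noncoding RNA gene annotated on the opposite strand. Gm17275 is not listed, so that sum leaves it out, and the strand setting of the counting is not given.

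Genes for the H3.3 chaperones moved in both directions, at shares near those of all genes tested. Of 7, 2 rose and 2 fell with SAHA, and 3 rose and 3 fell with Smarcb1-RE, with medians of -0.07 and -0.12. Among all genes tested, 32.6% rose and 34.3% fell with SAHA, and 39.2% rose and 38.6% fell with Smarcb1-RE. Hira, the core of its complex, fell by 0.21 ± 0.05 with SAHA (adjusted p = 0.00133) and by 0.35 ± 0.05 with Smarcb1-RE (adjusted p = 1.78e-05). Daxx rose by 0.60 ± 0.05 with SAHA (adjusted p = 2.66e-07) and fell by 0.28 ± 0.05 with Smarcb1-RE (adjusted p = 0.000188). Atrx, the ATPase partner of DAXX, rose from 214 ± 13 CPM in control to 239 ± 11.9 with SAHA (log2 0.16, adjusted p = 0.0135) and 368 ± 5.83 with Smarcb1-RE (log2 0.78, adjusted p = 1.61e-08). Ubn1, a HIRA partner, had the largest called difference with SAHA (log2 -0.61, adjusted p = 1.55e-06), and its paralogue Ubn2 with Smarcb1-RE (log2 0.87, adjusted p = 4.24e-09).

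The macroH2A genes were unequal: H2afy was expressed and H2afy2 was not detected. H2afy (ENSMUSG00000015937; chr13:56073619-56136361, minus strand) stood at 193, 184 and 178 CPM in control, 160, 150 and 159 with SAHA, and 110, 109 and 117 with Smarcb1-RE. The groups did not overlap, and Smarcb1-RE was the lowest. H2afy fell by 0.24 ± 0.05 on the log2 scale with SAHA (adjusted p = 0.000442) and by 0.72 ± 0.05 with Smarcb1-RE (adjusted p = 1.58e-08). With library totals the Smarcb1-RE difference was -0.56 and still passed. H2afy was lower in Smarcb1-RE than in SAHA cells (log2 -0.48, adjusted p = 8.93e-07). H2afy2 (ENSMUSG00000020086; chr10:61738665-61784147, minus strand) had 0 counts in all 9 libraries, and a floor of 3 counts allows up to 0.123 to 0.133 CPM, for counting error only. The table is per gene, so the splice forms of H2afy could not be separated.

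**Figure D4:**
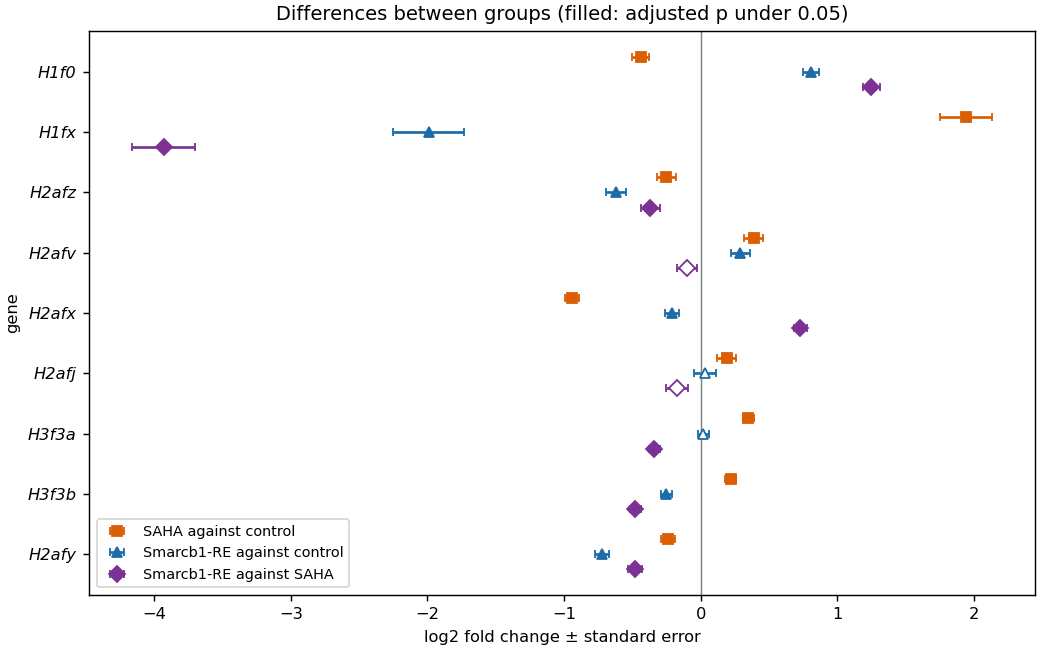
Log2 fold change ± SE (horizontal axis) of each tested variant histone gene for SAHA against control, Smarcb1-RE against control and Smarcb1-RE against SAHA; filled symbols have an adjusted p under 0.05. H1f0, H1fx and H3f3b lie on opposite sides of 0 for the treatments, and open symbols mark the 4 differences of H2afj, H2afv and H3f3a that did not pass.

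Cenpa, the centromeric H3 variant, went from 70.9 ± 5.41 CPM in control to 54.1 ± 2.64 with SAHA (log2 -0.39, adjusted p = 0.00013) and 46.6 ± 2.97 with Smarcb1-RE (log2 -0.61, adjusted p = 1.86e-06). In the list of 5 genes for CENP-A and its loading, 5 fell with SAHA, and 4 fell and 1 rose with Smarcb1-RE. Mis18a, a centromere licensing gene, had the largest called difference with SAHA (log2 -0.57, adjusted p = 1.73e-06). Slbp, which binds the stem-loop of cluster histone mRNAs, went from 193 ± 9.58 CPM to 161 ± 4.7 with SAHA (log2 -0.26, adjusted p = 0.000298) and 127 ± 4.56 with Smarcb1-RE (log2 -0.60, adjusted p = 9.75e-08). Of 10 histone mRNA processing genes, 5 fell and 1 rose with SAHA, led by Cpsf2 of the cleavage complex (log2 -0.57, adjusted p = 1.53e-07). With Smarcb1-RE, 7 fell and none rose, and Lsm11 of the U7 particle had the largest called difference (log2 -1.13, adjusted p = 2.9e-09). For both lists the all-gene shares were 34.3% lower and 32.6% higher with SAHA, and 38.6% and 39.2% with Smarcb1-RE.

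The general chaperones, 6 genes that include the FACT subunit Supt16, had 4 lower and 1 higher with SAHA and all 6 lower with Smarcb1-RE, with medians of -0.38 and -0.64. Supt16 fell by 0.83 on the log2 scale with Smarcb1-RE (adjusted p = 7.35e-09), and Supt6 rose by 0.58 with SAHA (adjusted p = 2.13e-06). Of 7 replication-coupled chaperone genes, 5 fell and 1 rose in each treatment. The largest called differences were in Tonsl with SAHA (log2 -0.63, adjusted p = 7.46e-08) and Chaf1b, a CAF-1 subunit, with Smarcb1-RE (log2 -0.65, adjusted p = 3.3e-07). All genes tested gave 34.3% lower and 32.6% higher with SAHA, and 38.6% lower and 39.2% higher with Smarcb1-RE.

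Cell cycle genes moved beside these. Their counts stand against 34.3% lower and 32.6% higher among all genes with SAHA, and 38.6% and 39.2% with Smarcb1-RE. Of 15 S-phase genes, 13 fell with SAHA and 14 with Smarcb1-RE, and none rose, with medians of -0.51 and -0.67. The largest called S-phase differences were in Tyms, thymidylate synthase, with SAHA (log2 -0.99, adjusted p = 5.94e-09) and in Mcm5, a helicase subunit, with Smarcb1-RE (log2 -1.36, adjusted p = 5.58e-11). Of 10 G2/M genes, 10 fell with SAHA and 9 with Smarcb1-RE, with medians of -0.51 and -1.13, and the largest called differences were in the cyclin gene Ccnb2 with SAHA (log2 -0.80, adjusted p = 7.76e-08) and the kinase gene Plk1 with Smarcb1-RE (log2 -1.76, adjusted p = 4.19e-12). The paper reports slower growth after Smarcb1 re-expression, with viability and cell cycle unaffected. For SAHA it reports no significant cell cycle effect at submicromolar doses, which are below the dose used here. At the dose used here it reports strong apoptosis. The parts of cell cycle position and of cell death in the variant histone values were not tested. In bulk RNA, fewer cells in a phase and less RNA per cell cannot be told apart. Among 9 germline histone variants, 7 had 0 counts in all libraries, and none passed the filter.

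**Figure D5:**
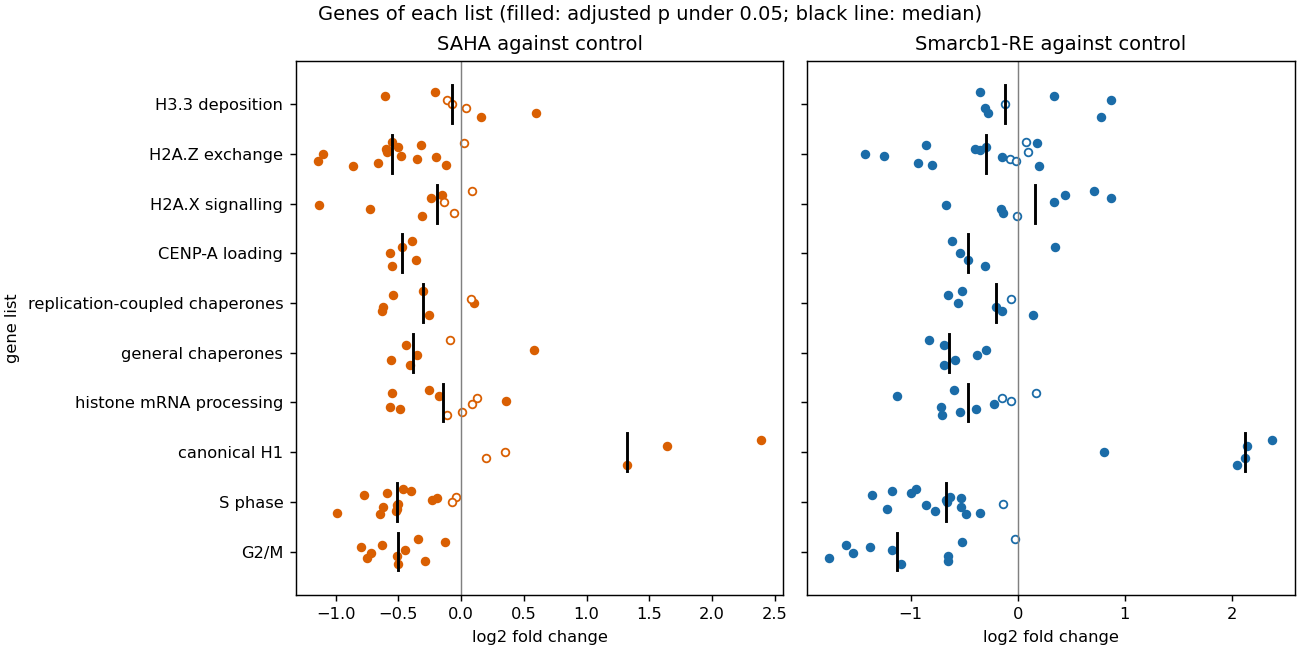
Log2 fold changes (horizontal axis) against control for the genes of each list (vertical axis), with SAHA on the left and Smarcb1-RE on the right; each point is a gene, filled where the adjusted p is under 0.05, and the black line is the list median. Most S-phase, G2/M and H2A.Z exchange genes lie below 0 in both panels, and canonical H1 genes lie above 0.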

How the data were processed

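Total RNA of 9 T15 libraries was sequenced as single-end reads after a directional library kit. The authors deposited 1 unnormalised table holding estimated counts for each Ensembl identifier, with 9 columns that all belong to a sample. Submitters' processing notes name FastQC 0.11.8, MultiQC 1.7, Salmon 0.14.1, DESeq2 1.22.2 and GRCm38, without stating roles. RNA selection, strand setting and annotation release are not given in the sources used here. The members, lists and tests were chosen with earlier results of these data known.

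Estimated counts were rounded and fitted with edgeR 4.0.16 (R 4.3.3; TMM factors, filterByExpr with a minimum count of 10, quasi-likelihood, 1 model of 3 groups) on all 13697 genes that passed. The common biological coefficient of variation was 5.24%. Calls used an adjusted p under 0.05. DESeq2 1.42.0 was an alternative, beside other scalings, filters, fits, thresholds and left-out libraries. Symbols and coordinates came from GENCODE M21 (GRCm38), which held 99.5% of identifiers, and shared 50-base stretches from its transcripts. The script was tested on simulated counts.

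All 10 members were named, and from each other list the gene with the largest called difference in a comparison could be, with Cenpa, Slbp, Anp32e, Hira, Daxx, Atrx and Srcap whatever their result. The replicates are described as biological by the study; p-values measure the spread between these cultures of 1 line. No pairing by replicate number was seen: deviations of same-numbered libraries correlated at -0.0718 to 0.0366, and of differently numbered ones at -0.0361 to 0.0507. Whether same-numbered cultures were handled together is not stated.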

Additional observations from a re-analysis of the deposited data

Results flagged for a closer look

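For 3 variant histone genes the 2 treatments were called in opposite directions against control, and the direct comparison of Smarcb1-RE with SAHA libraries passed the test as well. These were H1f0, lower with SAHA and higher with Smarcb1-RE (log2 difference 1.25), H1fx, higher with SAHA and lower with Smarcb1-RE (-3.93), and H3f3b, likewise higher and then lower (-0.48). Both treatments share the control libraries. The cause was not tested.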

How the results depend on the processing

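Of 540 recomputed member fold changes, 495 kept their direction and side of the threshold, 27 lost the call, 10 gained one and 8 changed sign. The sign changes were of differences that had not passed: H3f3a with Smarcb1-RE without the low-count filter (-0.01), and when a library was left out (range -0.01 to 0.05, negative without control replicate 2, control replicate 3 or Smarcb1-RE replicate 1), H2afj with Smarcb1-RE likewise (range -0.06 to 0.13, negative without control replicate 2, control replicate 3 or Smarcb1-RE replicate 2), and H2afv in Smarcb1-RE against SAHA with library totals (0.06); the cause was not tested. Requiring a log2 fold change of at least 1 left 1 member higher and 0 lower with SAHA, 0 higher and 1 lower with Smarcb1-RE, and 1 higher and 1 lower between treatments. The pathway lists then held 3 higher and 3 lower, 4 higher and 13 lower, and 4 higher and 1 lower. The share of all genes that pass this threshold is not given here, so these counts have no background beside them. With library totals, 4 members were higher with Smarcb1-RE. The all-gene median moved to 0.17, and no all-gene share of calls is given for that scaling. H2afj in Smarcb1-RE against SAHA became a call under DESeq2 (adjusted p = 0.0463), RLE factors (0.0457), no low-count filter (0.0364) and separate fits (0.00273), and without any 1 control library. The sign of every paired ratio held in 120 of 120 alternatives, but many of these could not change it. Dropping the length scaling or blocking by replicate leaves each difference as it was. Adding pseudogenes cannot move the ratio of H1f0 to H1fx, which have none that were summed. The call was fixed in advance, since no ratio could pass with 3 against 3. The replicate block left every member call in place (H2afj with SAHA, adjusted p = 0.0426). Depth limits H1fx, at 10 to 19 counts with Smarcb1-RE, and H2afy2.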
